A study of Mus musculus with 21 samples.

Results

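The genes described here are 9 ependymal and motile cilia genes, Foxj1, Ccdc153, Tmem212, Rarres2, Dynlrb2, Ak7, Tekt1, Hydin and Pifo, picked by symbol from a count table of 24498 genes. All 9 passed the filter on low counts that left 14578 genes for testing. RNA came from the hippocampus of male mice of 8 weeks, and every library used in the comparisons came from mice that received ethanol (2 g per kg, 20% in saline) into the peritoneum. The knockdown arm carried AAV2/9 U6.shACSS2.CMV.EGFP, a virus with a short hairpin RNA against Acss2, the enzyme that turns acetate into acetyl-CoA. The protocol places that injection in the dorsal hippocampus, the series text can be read as giving it systemically, and no vector is described for the control arm. The time from ethanol to dissection and the strain are not given in the sources used here. Ethanol libraries with over 1000000 gene reads numbered 4 dorsal knockdown, 3 ventral knockdown, 3 dorsal control, 4 ventral control and 1 knockdown library of total hippocampus. Nothing in the labels ties replicates to separate animals, so the p-values reflect the spread between libraries alone, which may be technical.

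Ependymal cells form the ciliated lining of the brain's ventricles and move cerebrospinal fluid with bundles of motile cilia. The shaft of a motile cilium is an axoneme, in which dynein arms slide doublet microtubules against each other around a central apparatus, and the transcription factors FOXJ1 and the RFX family switch on the genes that build it. The hippocampus borders the lateral ventricle, where the ependyma continues into the choroid plexus, an epithelium that secretes cerebrospinal fluid and transthyretin, the product of Ttr. In bulk tissue, fewer ependymal cells and less RNA per ependymal cell cannot be told apart.

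RFX factors bind the X-box, a paired site whose half-site is often written GTTGCC, and the promoters of the 9 genes were searched for it because these genes varied together across libraries. RefSeq promoter windows of 250 bases before to 50 after a start (GRCm38.p6, the mm10 assembly) matched 7 of the 9 genes by symbol with 9 windows, and none was matched for Foxj1 or Rarres2. GTTGCC, on either strand, was in at least 1 window of 5 of the 7 genes (5 of 9 windows), and in 12.5% of all 32851 windows. The 5 windows are shown by their bases before the RefSeq start, up to 160 and without annotated exon bases, 5′ to 3′ on the strand of the gene, with the half-site or its reverse complement in capitals and, for Pifo, the long form GTTNCCNNGGNAAC in capitals.
Tekt1, chr11:72361883-72362042, minus strand: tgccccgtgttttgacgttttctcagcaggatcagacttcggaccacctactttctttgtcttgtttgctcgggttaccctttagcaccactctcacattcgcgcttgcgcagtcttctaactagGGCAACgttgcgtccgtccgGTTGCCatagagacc
Hydin, chr8:110266817-110266976, plus strand: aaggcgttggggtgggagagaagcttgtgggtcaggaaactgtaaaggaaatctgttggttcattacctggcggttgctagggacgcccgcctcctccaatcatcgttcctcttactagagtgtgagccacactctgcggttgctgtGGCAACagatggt
Dynlrb2, chr8:116504855-116504973, plus strand: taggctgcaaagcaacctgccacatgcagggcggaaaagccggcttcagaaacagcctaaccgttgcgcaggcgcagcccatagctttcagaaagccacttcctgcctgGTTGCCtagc
Pifo, chr3:106001498-106001657, minus strand: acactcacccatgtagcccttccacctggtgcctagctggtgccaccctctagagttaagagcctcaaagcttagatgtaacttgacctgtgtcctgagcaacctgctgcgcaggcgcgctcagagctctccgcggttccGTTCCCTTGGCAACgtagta
Ccdc153, chr9:44240517-44240675, plus strand: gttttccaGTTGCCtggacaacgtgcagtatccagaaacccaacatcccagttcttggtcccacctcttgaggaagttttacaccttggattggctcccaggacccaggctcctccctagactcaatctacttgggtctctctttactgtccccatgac

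Counted from the start, with -1 as the last base before it, the half-site began at -35 and -15 in Tekt1, at -13 in Hydin, at -51 in Dynlrb2, at -12 in Pifo and at -152 in Ccdc153. The long form, searched on both strands, was in this Pifo window only among the 9 and in 0.451% of all windows. It contains the half-site there. The second windows of Pifo and Tekt1, at other RefSeq starts, held no half-site of these letters. TGTTTA, a core that forkhead factors such as FOXJ1 can bind, was searched the same way. It was in 3 of 9 windows, of Ak7, Tmem212 and Pifo, and in 13.4% of all windows. The Pifo match lay after the start in the second Pifo window, which is not printed. Before the start it was in 2 of 9 windows and in 12% of all. These are matches of letters, and binding was not measured.

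Across the series, Acss2 was 52.3, 58.3 and 53.4 CPM (gene reads scaled to a library of 1000000, with TMM factors) in dorsal control 1 to 3 and 44.7, 41.3, 17.7 and 19.0 CPM in dorsal knockdown 1 to 4. These groups did not overlap, as was so for 3.2% of tested genes in that direction. The log2 fold change of Acss2 there was -0.84 (SE 0.32, edgeR adjusted p = 0.964). Acss2 was 49.6, 53.4, 48.0 and 47.5 CPM in ventral control 1 to 4, 28.8, 64.4 and 36.7 CPM in the libraries labelled ventral knockdown 2, 3 and 4, and 58.0 CPM in total knockdown. The libraries labelled ventral knockdown 3 and total knockdown thus held Acss2 at control level. Gene reads ranged from 2819837 to 13240179 per library. The 9 genes together took 91 to 656 reads in 14 of the 15 libraries, so single values rest on few reads, and 2186 in ventral control 4. That library stood apart in Ttr, 14292 CPM against 15.9 to 566 in the other 14, and results are given with and without it. Hippocampal neuron and astrocyte markers were present in every group, at 741 to 1629 and 3103 to 8831 summed CPM.

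Foxj1 (ENSMUSG00000034227.7, mm10 chromosome 11, 116330704 to 116335399, minus strand) encodes the forkhead transcription factor that switches on the motile cilia program. It was 11.9, 16.5 and 6.16 CPM in dorsal control 1 to 3, 8.06, 7.16, 26.1 and 19.2 CPM in dorsal knockdown 1 to 4, 2.14, 8.32, 13.9 and 68.0 CPM in ventral control 1 to 4, 5.78, 8.19 and 3.53 CPM in ventral knockdown 2 to 4, and 6.66 CPM in total knockdown. The highest value was that of ventral control 4 and the lowest that of ventral control 1, so the control libraries of the ventral region held both ends of the range. All 4 regional groups overlapped.

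Tekt1 (ENSMUSG00000020799.16, chromosome 11, 72344722 to 72362442, minus strand) encodes tektin 1, a filament protein of the doublet microtubules. It was 2.20, 2.93 and 2.98 CPM in dorsal control, 1.44, 3.33, 4.08 and 3.04 CPM in dorsal knockdown, 2.85, 3.02, 3.46 and 14.9 CPM in ventral control, 1.84, 2.31 and 1.04 CPM in ventral knockdown, and 1.35 CPM in total knockdown. Each ventral control library was above each ventral knockdown library, as was so for 1.51% of tested genes, and the dorsal groups overlapped. Hydin (ENSMUSG00000059854.8, chromosome 8, 110266977 to 110610253, plus strand) encodes a very large protein of the central apparatus whose loss causes hydrocephalus in mice. It was 3.95, 5.30 and 4.25 CPM in dorsal control, 3.60, 2.16, 4.19 and 4.49 CPM in dorsal knockdown, 3.21, 4.79, 4.87 and 27.4 CPM in ventral control, 1.48, 2.21 and 2.18 CPM in ventral knockdown, and 0.564 CPM in total knockdown. Hydin also separated the ventral arms without overlap, and its lowest value was in total knockdown. It shares 237 exon bases with the antisense gene Gm26832, which is not in the count table.

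Ak7 (ENSMUSG00000041323.6, chromosome 12, 105705976 to 105782447, plus strand) encodes an adenylate kinase of motile cilia, which balances the nucleotides that feed ciliary beating. It was 6.15, 3.88 and 2.91 CPM in dorsal control, 2.73, 2.55, 6.02 and 5.94 CPM in dorsal knockdown, 4.46, 5.80, 5.30 and 34.6 CPM in ventral control, 0.861, 3.57 and 0.52 CPM in ventral knockdown, and 0.564 CPM in total knockdown. It was the third of these genes whose ventral arms did not overlap, where 1.51% of tested genes were lower in knockdown without overlap. Dynlrb2 (ENSMUSG00000034467.7, chromosome 8, 116504974 to 116515915, plus strand) encodes a roadblock-type dynein light chain. It was 0.879, 2.27 and 1.13 CPM in dorsal control, 0.863, 2.65, 2.04 and 1.85 CPM in dorsal knockdown, 4.10, 1.26, 1.84 and 11.7 CPM in ventral control, 0.738, 2.94 and 0.208 CPM in ventral knockdown, and 0.902 CPM in total knockdown. Its second highest value was in ventral control 1, where Foxj1 was lowest.

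Pifo (ENSMUSG00000010136.14, chromosome 3, 105996957 to 106014646, minus strand) encodes pitchfork, a protein of the base of cilia. It was 0.439, 0.757 and 0.567 CPM in dorsal control, 0.144, 1.18, 1.83 and 1.19 CPM in dorsal knockdown, 1.96, 0.756, 0.973 and 8.57 CPM in ventral control, 0.123, 1.26 and 0.208 CPM in ventral knockdown, and 0.338 CPM in total knockdown. Outside ventral control 4 it was below 1 CPM in 9 of 14 libraries, and its mean CPM was the lowest of the 9 genes. Ccdc153 (ENSMUSG00000070306.3, chromosome 9, 44240676 to 44247306, plus strand), a coiled-coil protein gene used as an ependymal marker, was 4.83, 6.82 and 4.32 CPM in dorsal control, 1.87, 7.16, 6.34 and 6.87 CPM in dorsal knockdown, 6.60, 3.78, 4.0 and 28.4 CPM in ventral control, 0.492, 7.35 and 0.104 CPM in ventral knockdown, and 0.677 CPM in total knockdown. Ventral knockdown spanned its range outside ventral control 4, with both the lowest and the highest of those 14 libraries.

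Tmem212 (ENSMUSG00000043164.3, chromosome 3, 27866066 to 27896368, minus strand), a membrane protein gene also used as an ependymal marker, was 2.64, 3.22 and 1.2 CPM in dorsal control, 0.863, 2.06, 4.41 and 2.25 CPM in dorsal knockdown, 1.96, 4.54, 4.0 and 16.1 CPM in ventral control, 0.246, 3.15 and 0 CPM in ventral knockdown, and 0.338 CPM in total knockdown. The 0 reads in ventral knockdown 4 allow up to 0.312 CPM on the same TMM scale (3 reads), counting error only. Rarres2 (ENSMUSG00000009281.6, chromosome 6, 48569696 to 48572789, minus strand) encodes chemerin, a secreted chemoattractant with no part in the axoneme. It was 7.03, 8.90 and 6.24 CPM in dorsal control, 4.75, 13.1, 15.5 and 8.06 CPM in dorsal knockdown, 11.2, 11.3, 7.68 and 27.4 CPM in ventral control, 5.04, 10.8 and 4.26 CPM in ventral knockdown, and 3.50 CPM in total knockdown. Of the 9 genes it stood least far above the other libraries in ventral control 4. On the opposite strand Lrrc61 covers 892 of its 2656 exon bases (33.6%), and the sources used here do not give the strand setting of the counting, so its level is uncertain.

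**Figure D1:**
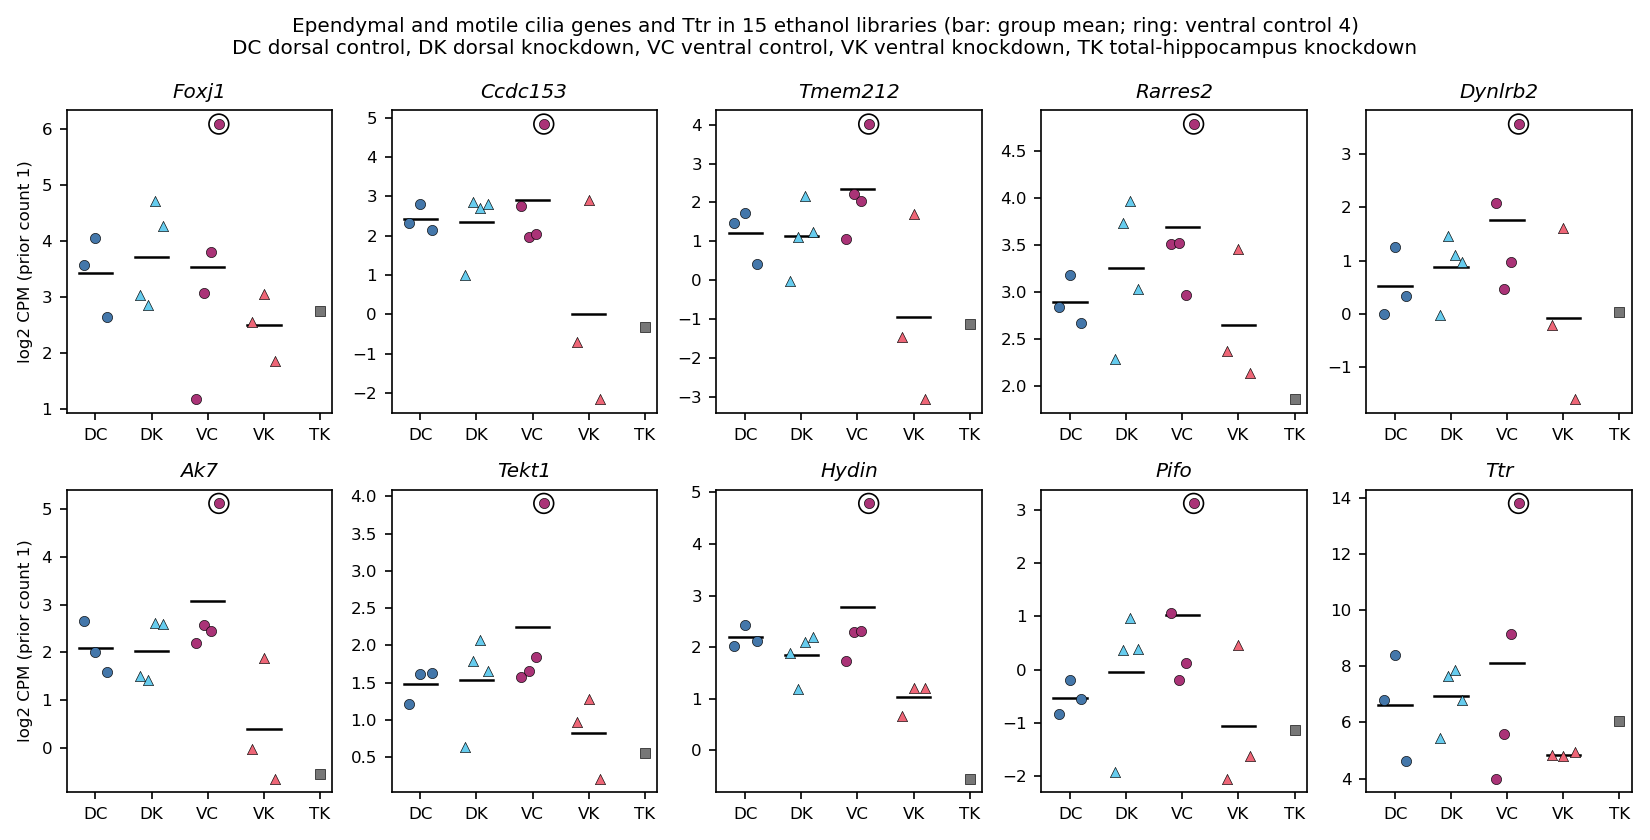
Level of each gene and of Ttr (y axis, log2 CPM with a prior count of 1, scaled separately per panel) in 15 ethanol libraries by group (x axis), with 1 point per library and a bar at the mean of each regional group. The ringed point is ventral control 4, the highest library in all 10 panels. Ventral knockdown 2, ventral knockdown 4 and total knockdown lie near the bottom for most of the 9 genes.

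Per kilobase of annotated exon, which allows levels to be compared between genes, the medians over the 14 libraries other than ventral control 4 were 3.10 CPM for Foxj1, 3.01 for Tmem212, 2.96 for Rarres2, 2.79 for Dynlrb2 and 2.25 for Ccdc153. Tekt1 followed at 1.78, Ak7 at 0.885, Pifo at 0.671 and Hydin, with 18037 exon bases, at 0.209 CPM per kilobase. Ttr was 47.9 CPM per kilobase on the same scale.

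Ventral control 4 held the highest level of all 9 genes, as it did for 9.74% of tested genes (1420 of 14578). It exceeded the median of the other 14 libraries 3.49-fold for Rarres2, 5.13-fold for Tekt1, 6.21-fold for Ccdc153, 7.27-fold for Hydin, 7.46-fold for Tmem212, 7.56-fold for Dynlrb2, 8.37-fold for Foxj1, 9.29-fold for Ak7 and 11.3-fold for Pifo. Of tested genes with a median above 0, 2.55% were at least 3.49-fold above it in that library. Ttr was 252-fold above its median there, so the ciliary genes and Ttr were high in the same library by very different factors.

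The level of the 9 genes as a group was summarised as a score, the mean over the genes of log2 CPM minus each gene's own mean over 15 libraries. Ventral control 4 scored 2.80. The next were dorsal knockdown 3 at 0.82, dorsal knockdown 4 at 0.46, dorsal control 2 at 0.43 and ventral control 3 at 0.40. The lowest were ventral knockdown 4 at -2.07, total knockdown at -1.50, ventral knockdown 2 at -1.43 and dorsal knockdown 1 at -0.73. Ttr did not rank libraries the same way. The library labelled ventral knockdown 3 was sixth in the score and thirteenth of 15 in Ttr, at 27.7 CPM, and ventral control 1 was eighth in the score and lowest in Ttr, at 15.9 CPM. These 2 libraries and dorsal knockdown 2 also had the smallest shares of gene reads on the ribosomal RNA gene Rn45s, 1.08%, 0.625% and 1.17%, against 3.49% to 20.7% in the others. The part of that share in the result was not tested.

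Whether each gene followed Ttr was tested with a slope, the change in log2 of the gene per log2 unit of Ttr, fitted with edgeR to all genes over the 15 libraries. The slopes were 0.41 for Foxj1 (SE 0.05, edgeR adjusted p = 0.000162), 0.37 for Ak7 (SE 0.07, adjusted p = 0.00877), 0.36 for Pifo (SE 0.08, adjusted p = 0.0218), 0.33 for Hydin (SE 0.06, adjusted p = 0.00311), 0.28 for Tekt1 (SE 0.05, adjusted p = 0.00205) and 0.38 for Tmem212 (SE 0.09, adjusted p = 0.0456). Ccdc153 had a slope of 0.30 (adjusted p = 0.133), Dynlrb2 of 0.27 (adjusted p = 0.0834) and Rarres2 of 0.19 (adjusted p = 0.0911), and these did not pass. With 6 of 9 genes called, all positive, the share of all tested genes called was 1.95% (284 of 14577), with 279 positive (1.91%) and 5 negative (0.0343%). By DESeq2, 4 of the 9 (Foxj1, Ak7, Tekt1 and Hydin) and 359 genes in all were called.

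Without ventral control 4, none of the 9 slopes and no gene of 14577 passed edgeR's adjusted threshold, with 822 genes (5.64%) and 1 of the 9 at an unadjusted p under 0.05. That gene was Foxj1, with a slope of 0.47 (SE 0.11, unadjusted p = 0.000395, adjusted p = 0.443), as steep as with the library. The other 8 slopes were between 0.05 for Dynlrb2 and 0.33 for Tmem212, and all 9 were positive. Within a region or an arm the count of slopes called by edgeR was 0 of 9 in dorsal libraries, 2 in ventral (Foxj1 and Hydin), 0 in knockdown and 3 in control libraries (Foxj1, Ak7 and Hydin). Of all 14577 tested genes, 0 (0.0%), 85 (0.583%), 0 (0.0%) and 117 (0.803%) were called in these sets. An unadjusted p under 0.05 was reached by 4 of the 9 and 582 genes in dorsal libraries and by 3 of the 9 and 517 genes in knockdown libraries. The ventral and control sets include ventral control 4.

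The correlation of log2 levels with Ttr was also computed, as 9 relations, and by rank it was weaker than the slopes for some genes. Over 15 libraries Pearson's r ranged from 0.57 (Ccdc153) to 0.87 (Foxj1), with unadjusted permutation p of 0.0347 to 6e-05, and Spearman's rho from 0.30 (Dynlrb2) to 0.82 (Foxj1), with p of 0.281 to 0.00043. By Spearman's rho, Foxj1, Tmem212, Tekt1 and Hydin had an unadjusted permutation p under 0.05. Ak7 (rho = 0.49, permutation p = 0.0669) and Pifo (rho = 0.32, permutation p = 0.241), whose slopes were called, did not. Neither did Ccdc153, Rarres2 or Dynlrb2. Among all tested genes, 4.73% had an r at least as high as the lowest of the 9. Over the 14 libraries without ventral control 4, Foxj1 had r = 0.77 and rho = 0.78 (permutation p of r = 0.00109, n = 14), and the other 8 genes had r of 0.25 to 0.49, with 25% of tested genes at or above the lowest. The 2 libraries farthest from the median of Ttr were ventral control 3 and 4. Without both, r was 0.79 for Foxj1 and 0.22 to 0.44 for the other 8, close to the values without ventral control 4 alone. For these 8 genes the relation thus rested largely on ventral control 4.

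Within groups of libraries, the median r of the 9 genes with Ttr was 0.65 in dorsal (n = 7), 0.70 in ventral (n = 7), 0.61 in knockdown (n = 8) and 0.84 in control libraries (n = 7). Hydin had r = 0.000492 in dorsal libraries and 0.91 in ventral ones. Without ventral control 4, r ranged from -0.05 (Rarres2) to 0.78 (Foxj1) in the 6 ventral libraries and from -0.26 (Pifo) to 0.88 (Foxj1) in the 6 control libraries. Foxj1 had r of 0.65 or more in each of these subsets, whereas r changed sign between subsets for Rarres2, Dynlrb2, Pifo and Ccdc153.

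**Figure D2:**
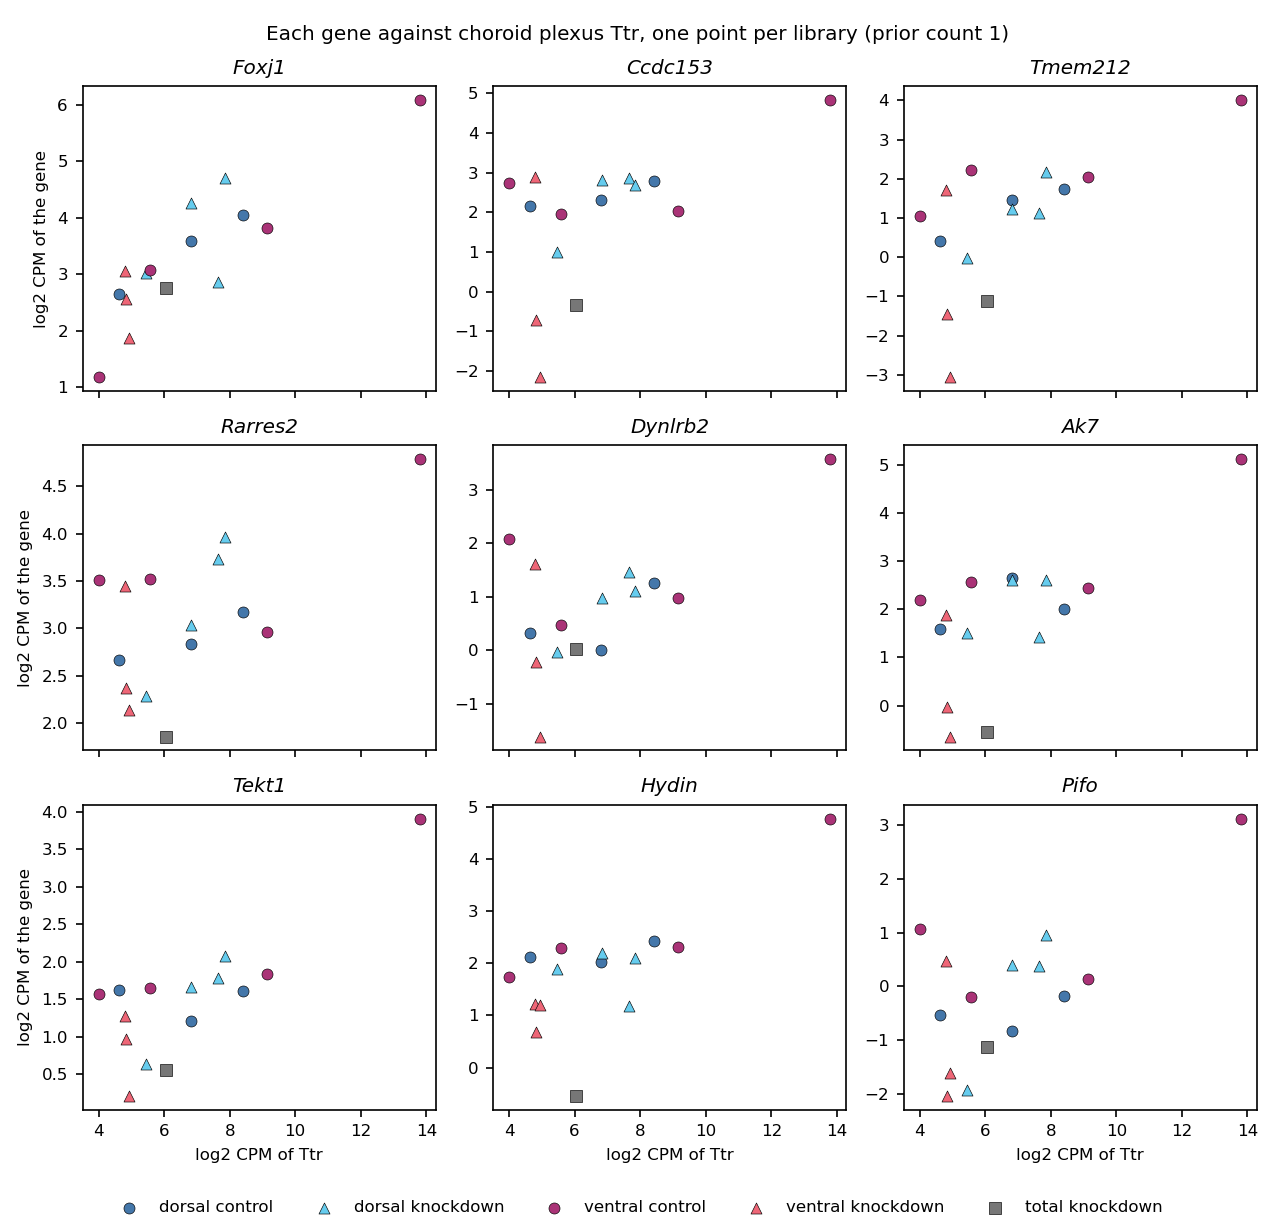
Each gene's level (y axis, log2 CPM with a prior count of 1) against that of Ttr (x axis, same unit), with 1 point per ethanol library, coloured by group. The point at the upper right of each panel is ventral control 4, and over the other 14 points Foxj1 has r = 0.77 with Ttr and the other genes 0.25 to 0.49.

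The 9 genes followed each other more closely than 8 of them followed Ttr. Their 36 pairwise correlations of log2 levels ranged from 0.53 to 0.94 with a median of 0.83 over 15 libraries, and from 0.20 to 0.93 with a median of 0.76 over the 14 without ventral control 4. The libraries, their depth and their scaling are shared by all pairs, and the correlations are descriptions. Over the 14 libraries, r with the mean of the other 8 genes was 0.95 for Tmem212, 0.94 for Ccdc153, 0.91 for Ak7, 0.90 for Tekt1, 0.84 for Rarres2, 0.79 for Pifo, 0.78 for Dynlrb2 and 0.63 for Hydin. Foxj1 was lowest at 0.47, below its own r with Ttr of 0.77. For the other 8 genes the order was the opposite. These measures are unlike, since one is a mean of 8 genes and Ttr is 1 gene. With the mean of choroid plexus genes other than Ttr, r was 0.70 for Foxj1 and 0.31 to 0.55 for the other 8. The group score had r = 0.75 with Ttr over 15 libraries and 0.48 over 14.

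**Figure D3:**
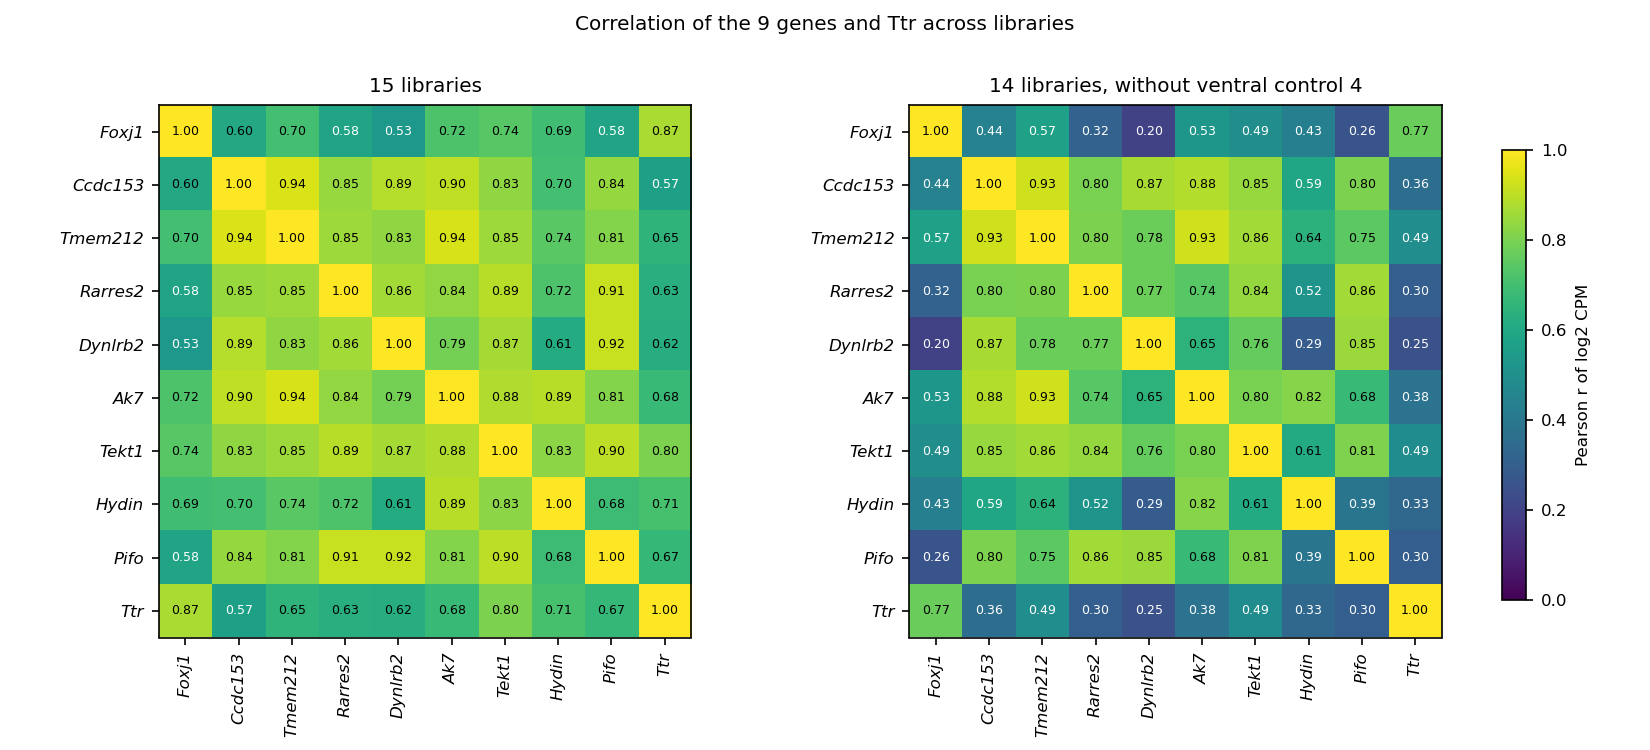
Pearson r of log2 CPM between the 9 genes and Ttr over 15 ethanol libraries (left) and over 14 without ventral control 4 (right), with the colour scale running from 0 to 1. On the right, Foxj1 is paired most strongly with Ttr (0.77), while Ccdc153, Tmem212, Ak7, Tekt1, Rarres2, Dynlrb2 and Pifo have correlations of 0.65 to 0.93 among themselves.

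The knockdown was compared with control within each region, and the regions within each arm, in 1 edgeR model of 14 libraries. The comparisons share groups, so their values are given side by side. In ventral hippocampus all 9 genes were lower in knockdown, with log2 fold changes from -1.13 for Rarres2 to -2.95 for Ak7 and a median of -2.05, beside -0.01 over all tested genes. Ak7 was 1.65 ± 1.67 CPM (SD, n = 3) in ventral knockdown and 12.5 ± 14.7 CPM (SD, n = 4) in ventral control (log2 fold change -2.95, SE 0.83, edgeR adjusted p = 0.706). Hydin was 1.95 ± 0.415 CPM (SD, n = 3) against 10.1 ± 11.6 CPM (SD, n = 4; log2 fold change -2.39, SE 0.66, edgeR adjusted p = 0.655). Tekt1 was 1.73 ± 0.643 CPM (SD, n = 3) against 6.05 ± 5.88 CPM (SD, n = 4; log2 fold change -1.84, SE 0.60, edgeR adjusted p = 0.872). By edgeR 0 of the 9 and 0.0% of all genes passed the adjusted threshold, with 8 of the 9 and 593 genes (4.07%) at an unadjusted p under 0.05, while 35 genes were called by DESeq2, of which Ak7 was 1 (adjusted p = 0.0384). Ak7, Tekt1 and Hydin did not overlap between the ventral arms, as was so for 1.51% of tested genes in that direction and 1.15% in the other.

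Without ventral control 4 the ventral fold changes of the 9 genes were still all negative, but their median was -0.90 and their range -1.65 for Ak7 to -0.51 for Foxj1. The control means then were 5.19 ± 0.675 CPM for Ak7, 4.29 ± 0.933 CPM for Hydin and 3.11 ± 0.312 CPM for Tekt1 (SD, n = 3). Hydin (log2 fold change -1.14, SE 0.37, unadjusted p = 0.0089) and Ak7 (-1.65, SE 0.61, unadjusted p = 0.018) were the 2 of 9 at an unadjusted p under 0.05 by edgeR, as were 339 of 14451 genes (2.35%), and no gene passed after adjustment. The ventral knockdown mean rests on unlike libraries, since the 9 genes summed to 41.8 CPM in the library labelled ventral knockdown 3, where Acss2 was at control level, and to 16.6 and 12.1 CPM in ventral knockdown 2 and 4. Ventral control 1 to 3 held 38.5, 43.6 and 46.1 CPM, so the library labelled ventral knockdown 3 lay among them. Leaving that library out, with ventral control 4 kept, moved the median of the 9 to -3.35. Total knockdown, also with Acss2 at control level (58.0 CPM), held 14.9 CPM of the 9 genes. Dorsal knockdown 3 and 4, the lowest in Acss2 (17.7 and 19.0 CPM), held 70.5 and 52.8 CPM of them. A relation of Acss2 to the 9 genes across libraries was not tested.

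In dorsal hippocampus 8 of the 9 genes had a positive fold change in knockdown, with a median of 0.12, beside 0.03 over all tested genes, and a range from -0.34 for Hydin to 0.82 for Pifo. Foxj1 averaged 15.1 ± 9.14 CPM (SD, n = 4) with the knockdown and 11.5 ± 5.16 CPM (SD, n = 3) without it (log2 fold change 0.41, SE 0.83, edgeR adjusted p = 0.999). Neither any of the 9 nor any gene passed by edgeR (0.0%), 667 genes (4.58%) and 0 of the 9 reached an unadjusted p under 0.05, and 11 genes, none of the 9, were called by DESeq2. With ventral control 4 out of the fit these counts were 0 called, and 676 genes (4.68%) and 0 of the 9 at an unadjusted p under 0.05. All 9 genes overlapped between the dorsal arms, where 3.85% of tested genes were higher and 3.2% lower in knockdown without overlap. The direction of several of these small differences turned with the fit, as given in the closing section.

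Between regions of the control arm, all 9 genes were lower in dorsal than in ventral libraries, with a median log2 difference of -1.18, beside -0.06 over all tested genes, from -0.98 for Rarres2 to -2.34 for Pifo. None passed by edgeR (0.0% of all genes), Pifo alone had an unadjusted p under 0.05 (0.0299), as did 813 genes (5.58%), and 13 genes, none of the 9, were called by DESeq2. All 9 overlapped between the regions, where 5.56% of tested genes were higher and 3.48% lower in dorsal control without overlap. Without ventral control 4 the median was -0.34 and 6 of the 9 were lower. Foxj1 (0.47), Ccdc153 (0.15) and Hydin (0.08) were then higher in dorsal libraries, and 0 of the 9 and 685 genes (4.74%) had an unadjusted p under 0.05, with none called by edgeR.

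Between regions of the knockdown arm, all 9 genes had positive log2 differences, dorsal minus ventral, with a median of 1.03, beside -0.01 over all tested genes, from 0.53 for Dynlrb2 to 1.39 for Foxj1. By edgeR 0 of the 9 and 0.0% of all genes passed, the unadjusted p was under 0.05 for 0 of the 9 and 317 genes (2.17%), and 0 genes were called by DESeq2. Groups that did not overlap were found for 1.04% of genes higher and 0.734% lower in dorsal libraries, and for none of the 9. The median was 1.98 without the library labelled ventral knockdown 3, and 0.64, 0.53 and 0.66 without ventral knockdown 2, ventral knockdown 4 and dorsal knockdown 3. With ventral control 4 out of the fit, which is in neither of these groups but shares in the estimate of the spread, the median remained 1.03 and 0 genes were called by edgeR. Foxj1 (unadjusted p = 0.0380), Ak7 (0.0313) and Hydin (0.0245), 3 of the 9, and 344 of 14451 genes (2.38%) were then at an unadjusted p under 0.05. The difference of the knockdown effect between regions was positive for all 9 genes, dorsal minus ventral, with a median of 2.21, 1.09 without ventral control 4 and 3.66 without the library labelled ventral knockdown 3. For this difference 0 genes passed by edgeR (0.0%), 5 of the 9 and 672 genes (4.61%) reached an unadjusted p under 0.05, and 9 genes, none of those described here, were called by DESeq2. In the fit without ventral control 4, 0 of the 9 and 524 genes (3.63%) reached an unadjusted p under 0.05 for this difference, and 0 genes were called by edgeR.

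**Figure D4:**
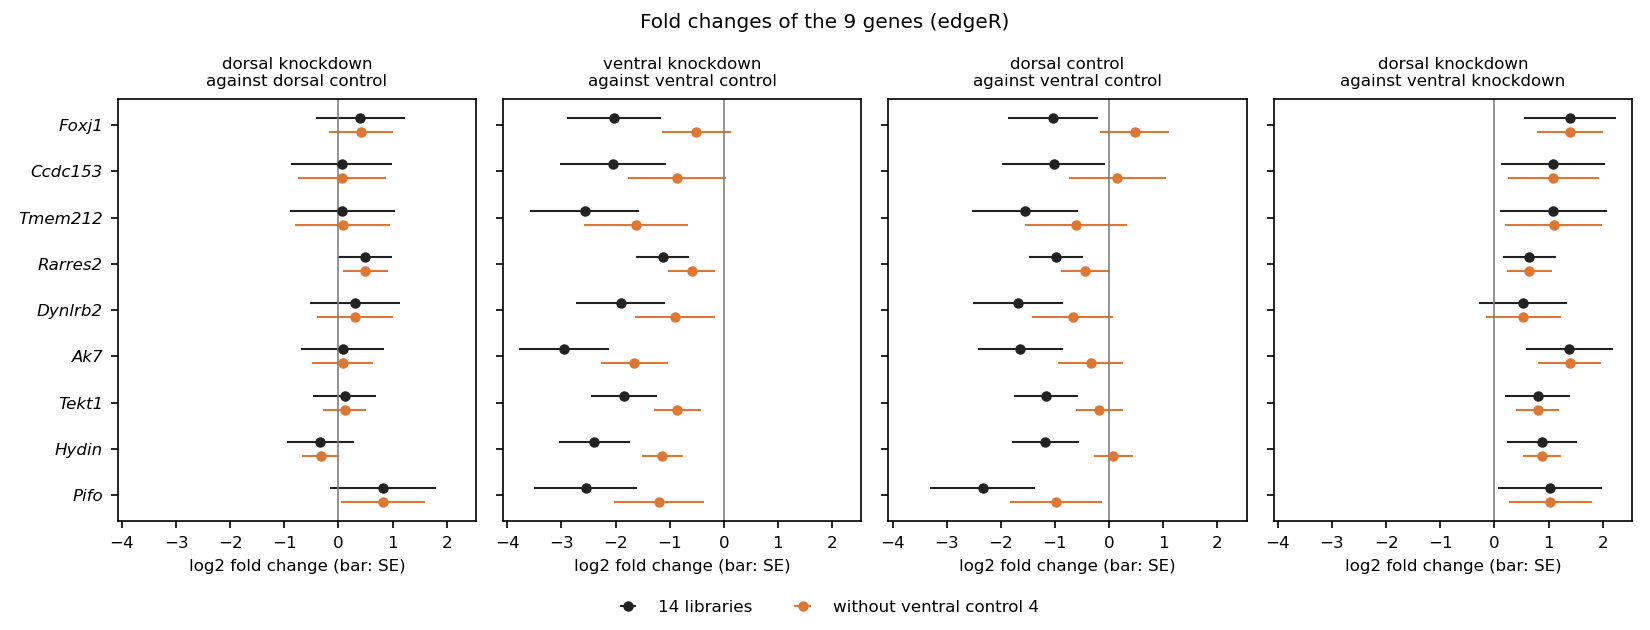
Log2 fold change (x axis; bar, standard error, edgeR) of each of the 9 genes (y axis) in 4 comparisons, from 14 libraries (black) and without ventral control 4 (orange). Leaving that library out moves the median of the ventral knockdown comparison from -2.05 to -0.90 and that of the control regions from -1.18 to -0.34.

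Other genes of motile cilia, listed by role, were tested for the slope on Ttr in the same fit. Among ciliogenesis regulators 2 of 6 tested genes were called, both positive, with a list median of 0.25. These were Rfx2, an RFX factor (0.23, adjusted p = 0.00289), and Trp73, which acts upstream of Foxj1 (0.32, adjusted p = 0.00289). Rfx3, the most abundant regulator listed, had a slope of 0.11 and was not called (adjusted p = 0.498). Of the axonemal dyneins, the motor proteins of the axoneme, 6 of 14 were called, all positive, with a median of 0.16. The most abundant of those called were the heavy chains Dnah2 (0.30, adjusted p = 0.00047), Dnah6 (0.46, adjusted p = 3.6e-05) and Dnah10 (0.41, adjusted p = 0.00203). The more abundant Dnal1 (-0.03), Dnah9 (0.14) and Dnah1 (0.11) were not called. Of genes that assemble or dock dyneins 3 of 12 were called, Ccdc114 (0.23), Dnaaf3 (0.34) and Ttc25 (0.28), with a median of 0.08. The more abundant Spag1 (0.04), Dnaaf5 (0.07) and Ccdc151 (0.09) were not called.

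Of central apparatus, radial spoke and nexin-dynein genes 8 of 18 were called, with a median of 0.22. Among them, Cfap46 of the central apparatus had a slope of 0.22, Drc7 of the nexin-dynein complex 0.57 and Rsph1 of the radial spokes 0.32. Gas8 (-0.0037), Ccdc39 (0.04), Drc1 (0.04), Rsph9 (0.09) and Cfap69 (0.12), all more abundant than these, were not called. Of doublet and tektin genes 5 of 13 were called, with a median of 0.18. The most abundant of those called were Cfap44 (0.24), Cfap43 (0.32) and Mns1 (0.23). Nme7 (-0.05) and Efcab1 (0.07), more abundant than Cfap43, were not called. Of other ependymal markers 7 of 19 were called, with a median of 0.17, including Wdr78 (0.15), 1700094D03Rik (0.17) and Kif9 (0.18). Tppp3, the most abundant marker of that list, had a slope of 0.15 and was not called (adjusted p = 0.0829). Cd24a (0.09) and Nme5 (0.03), more abundant than 1700094D03Rik, were not called either. All genes called in these lists had positive slopes. None of them was called without ventral control 4, where the medians of the 6 lists were 0.03 to 0.18. Slopes were then positive for 6 of 6 ciliogenesis regulators, 12 of 14 axonemal dyneins and 8 of 12 dynein assembly genes. In the same fit they were positive for 11 of 18 central apparatus, spoke and nexin-dynein genes and 7 of 13 doublet and tektin genes. Of other ependymal markers 11 of 19 were positive.

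Genes of the primary cilium and of intraflagellar transport, which immotile cilia of neurons and other cells also use, served as the contrast. None of 22 was called, and the median slope was -0.01. Kif3a had a slope of -0.03, Kif3b of -0.01 and Dynlrb1, the paralog of Dynlrb2, of -0.13 (adjusted p = 0.384). By edgeR 1 of the 22 had an unadjusted p under 0.05, where 1625 genes (11.1%) of all tested did. Over the 14 libraries without ventral control 4, the primary cilium list had r = -0.05 with the score of the 9 genes, while the lists of axonemal dyneins, dynein assembly and central apparatus each had r = 0.83, ciliogenesis regulators 0.70, doublet and tektin genes 0.69 and other ependymal markers 0.73.

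Markers of other cells were listed for the same comparison. Of 14 tested choroid plexus genes other than Ttr, 14 were called, with a median slope of 0.72 and a range from 0.36 for Prlr to 0.94 for Kcne2, a potassium channel subunit. Kl (0.43), the klotho gene, and Prlr, the prolactin receptor, were the most abundant of them and had the 2 lowest slopes. Summed choroid levels, Ttr included, were 15969.5 CPM in ventral control 4, 51.7 to 665 CPM in ventral control 1 to 3, 51.6 to 429 CPM in dorsal control, 107 to 304 in dorsal knockdown and 71.6 to 81.0 in ventral knockdown, and Mfrp was at 0 in every library. Of these, 0 of 14 were called without ventral control 4, 9 had an unadjusted p under 0.05 and the median was 0.61. The choroid list had r = 0.54 with the score of the 9 genes over those 14 libraries.

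None of 12 meningeal fibroblast, 12 astrocyte, 8 thalamus and habenula or 11 hippocampal neuron genes was called, with median slopes of 0.05, 0.01, -0.0038 and 0.01. Their most abundant genes were Igf2 (0.28), Dcn (-0.25) and Fmod (-0.04) for meninges, Slc1a2 (0.01), Gfap (0.03) and Aldoc (-0.04) for astrocytes, Nwd2 (-0.04), Prkcd (0.26) and Plekhg1 (0.07) for thalamus, and Mpped1 (-0.20), Wfs1 (-0.14) and Neurod6 (-0.08) for neurons. Their r with the score of the 9 genes over 14 libraries was -0.25, -0.18, -0.38 and -0.02. The part of any of these cell types in the differences between libraries was not tested.

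**Figure D5:**
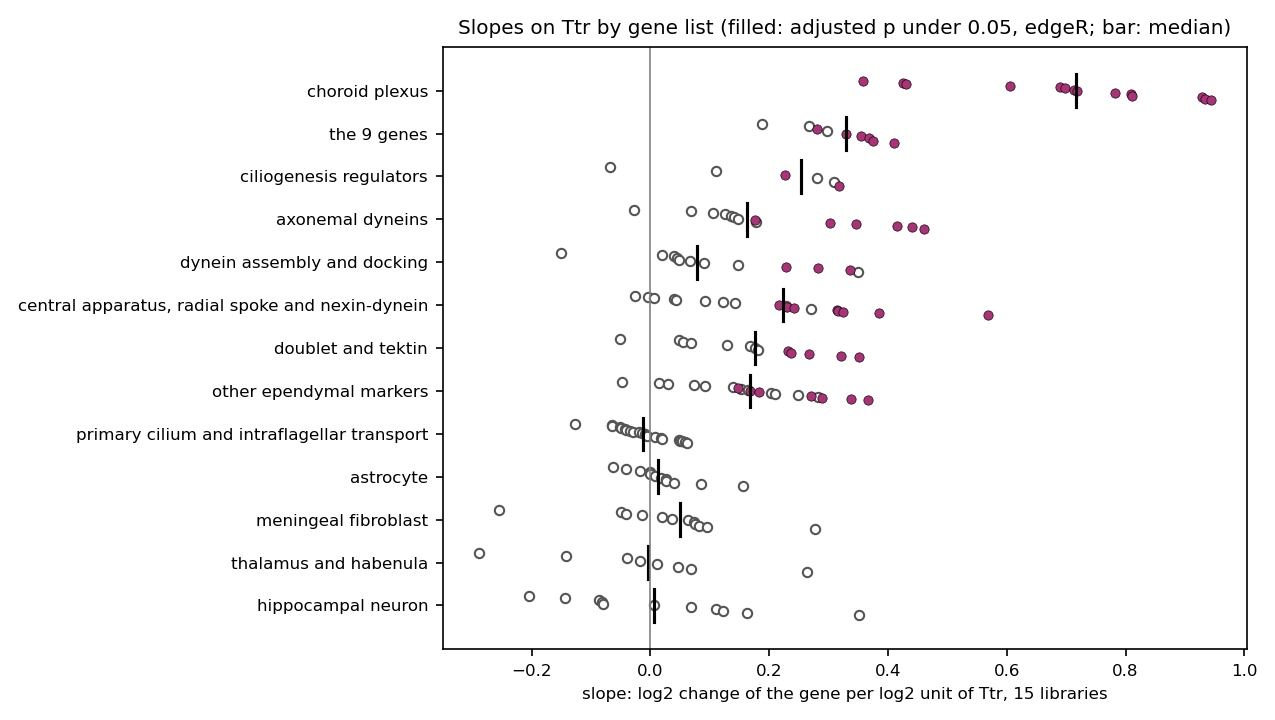
Slope of each gene on Ttr (x axis, log2 change per log2 unit of Ttr over 15 libraries) by gene list (y axis), with filled points for genes with an edgeR adjusted p under 0.05 and a bar at each list's median. The 9 genes (median 0.33) lie below the choroid plexus list (0.72) and above the primary cilium list (-0.01).

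In ventral hippocampus the same lists moved with the 9 genes by count, with none called by edgeR. In knockdown 5 of 6 ciliogenesis regulators (median log2 fold change -1.43), 14 of 14 axonemal dyneins (-0.96), 11 of 12 dynein assembly genes (-0.42), 16 of 18 central apparatus, spoke and nexin-dynein genes (-1.32), 13 of 13 doublet and tektin genes (-1.35) and 19 of 19 other ependymal markers (-1.46) had negative fold changes. These medians were -0.77, -0.51, -0.21, -0.58, -0.85 and -0.70 without ventral control 4. Negative then, in that order, were 5 of 6, 12 of 14, 8 of 12, 15 of 18, 11 of 13 and 17 of 18. Each count is out of the genes tested in that fit. Over all tested genes the median was -0.01 with that library and 0.0013 without it. The primary cilium list had medians of -0.13 with and without it. The choroid plexus list had medians of -5.29 with it (15 genes tested) and -1.36 without (13 genes tested).

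Among 13963 genes outside these lists with a mean of at least 1 CPM, those whose levels were most like the score of the 9 genes over 15 libraries were Lrrc23 (r = 0.97), Ccdc146 (0.96), Ccdc180 (0.95), Gm867 (0.95), 2410004P03Rik (0.94), Cdhr3 (0.94), Ppp1r32 (0.93), Wdr63 (0.92), C230072F16Rik (0.92) and Ttll6 (0.92). Without ventral control 4, Lrrc23 (0.95), Ccdc180 (0.95), Gm867 (0.94) and Ccdc146 (0.93) were again the closest. Car9 (0.87) and Hdc (0.86) then entered the closest 10 in place of Wdr63 and Ttll6.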

How the data were processed

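The deposited table holds the authors' raw counts of reads, with 24498 genes and 5 summary rows in 21 libraries of hippocampal RNA, made with a directional kit per the labels' protocols. STAR 2.5.2a, HTSeq 0.6.1p1 and mm10 are named in the submitters' processing notes. The sources used here do not give HTSeq's strand setting. Groups came from the sample titles. Used were 15 ethanol libraries with over 1000000 gene reads. Left out for depth were dorsal knockdown 5 (5021 gene reads), ventral knockdown 1 (8744) and the 4 untreated libraries (4279 to 221847). In the 4 untreated libraries 0.991% to 1.43% of the reads counted as in genes, in no feature or ambiguous were in genes, against 57.4% to 81.0% in the 15 used.

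Counts were fitted with edgeR 4.0.16 in R 4.3.3 (robust quasi-likelihood F-test, TMM, filterByExpr at a minimum count of 10), and a call required an adjusted p under 0.05 (Benjamini-Hochberg) over all genes tested. One model of 4 group means covered 14 dorsal and ventral libraries. The slope on log2 Ttr covered 15. Log2 levels used a prior count of 1, and correlations 100000 permutations. Fits were tested on simulated counts. Alternatives were RLE scaling, no low-count filter, DESeq2 1.42.0, a replicate block, other library sets, Ttr as a covariate, a choroid plexus score in place of Ttr, prior counts of 0.25 and 4, linear or unscaled CPM and leaving out each library. Leaving out ventral control 4 throughout was chosen after seeing the data.

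The 9 genes and the 12 other gene lists were chosen with earlier results of these data known, so no p is given over a list alone. Named by rule were, from each other list, up to 3 genes of highest mean level among those called in the slope or, where none was called, in the list, and the 10 genes outside the lists most like the mean of the 9. Some abundant genes that were not called are named beside those called. Gene positions are from GENCODE M21 of mm10, and promoters from RefSeq. Intervals and floors (3 reads) cover counting error only.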

Additional observations from a re-analysis of the deposited data

Results flagged for a closer look

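In groups of 4 libraries, 1 of which lay far from the other 3 by Dixon's test, ventral control 4 was high for Ccdc153 at 28.4 CPM, Ak7 at 34.6 CPM, Tekt1 at 14.9 CPM, Hydin at 27.4 CPM, Pifo at 8.57 CPM and Ttr at 14292 CPM. Dorsal knockdown 1 was low for Ccdc153 at 1.87 CPM. The test was run on 20 groups, counting each gene apart. Chance alone flags about 1 in 20 groups, and the genes share libraries.

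In the untreated libraries, which entered no comparison, Rarres2 had 30 reads in dorsal knockdown untreated 1, 35 reads in dorsal control untreated 1 and 45 reads in dorsal control untreated 2, and Ttr had 67 reads in dorsal control untreated 1, all above the 3 reads that a count of 0 allows. No source used here gives the strand setting of the counting, and Lrrc61 lies on the opposite strand over 33.6% of the exon bases of Rarres2, so there the reads of the pair cannot be told apart. Lrrc61 itself had 14 reads in dorsal knockdown untreated 1, 14 in dorsal control untreated 1 and 9 in dorsal control untreated 2. What the low gene counts of the untreated libraries mean for these values was not tested.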

How the results depend on the processing

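The slope on Ttr depended on ventral control 4. Leaving out each library in turn gave 0 to 333 genes called and 0 to 8 of the 9, the lowest without ventral control 4 and, for the 9, the highest without ventral control 1. Of all genes, 429 were called with no low-count filter, 40 with the replicate block, 69 with group means beside Ttr, 0 in dorsal, 85 in ventral, 0 in knockdown and 117 in control libraries, and 0 without the 2 libraries farthest from the median of Ttr. Of the 9, those counts were 1 with the replicate block and 1 with group means (Foxj1 in both), 0 in dorsal, 2 in ventral, 0 in knockdown and 3 in control libraries, and 0 without the 2 farthest libraries. The labels do not say whether replicate numbers pair libraries. Same-numbered libraries deviated together by r of -0.22 to 0.37 (18 pairs, median 0.00506). Differently numbered libraries gave r of -0.45 to 0.60 (55 pairs, median 0.00063), and these values cannot decide whether the numbers mark pairs. DESeq2 called 11 genes in the dorsal knockdown comparison, 35 in the ventral one (1 of the 9, Ak7), 13 between control regions and 9 for the difference of the knockdown effect. With all 20 dorsal and ventral libraries, 1 gene was called in the ventral knockdown comparison and 1 for that difference. Leaving out single libraries gave 0 to 8 genes in ventral knockdown and 0 to 6 between control regions, the most without ventral control 1 in both, and 0 to 2 for the difference of the knockdown effect, the most without ventral knockdown 3.

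Directions in the dorsal knockdown comparison were not stable. With the replicate block the median of the 9 was -0.18, with Foxj1 at -0.18, Ccdc153 at -0.24, Tmem212 at -0.34, Ak7 at -0.39 and Tekt1 at -0.069, and Foxj1 between control regions was 0.10. With Ttr as a covariate the dorsal median was -0.011, with Ccdc153 at -0.066, Tmem212 at -0.011, Ak7 at -0.041 and Tekt1 at -0.071, while Foxj1 was 0.38 in ventral knockdown, 0.48 between control regions and -0.064 for the difference of the knockdown effect. Leaving out single libraries, the dorsal median ranged from -0.014 to 0.49, Foxj1 from -0.0065 to 0.81, Ccdc153 from -0.090 to 0.34, Tmem212 from -0.41 to 0.49, Ak7 from -0.16 to 0.36 and Tekt1 from -0.083 to 0.34. Between control regions Foxj1 ranged from -1.44 to 0.47, Ccdc153 from -1.31 to 0.15 and Hydin from -1.47 to 0.077, all 3 positive only without ventral control 4. For these changes the cause was not tested. The shallowest library for the 9 genes, dorsal control 1, held 91 of their reads.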

Other observations

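Ventral control 1 held the lowest Foxj1 of the 15 libraries, 2.14 CPM, and the lowest Ttr, 15.9 CPM. In the same library Dynlrb2, at 4.10 CPM, and Pifo, at 1.96 CPM, were the highest of any library other than ventral control 4. It was also the library with the smallest share of gene reads on Rn45s, 0.625%.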
